A study of Mus musculus with 6 samples.

Results

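The circular RNAs (circRNAs) of 8 genes of the ubiquitin, NEDD8 and SUMO conjugation systems are described here, 8 out of 14236 circRNA probes on the array. The host genes are Anapc4, Birc6, Herc4, Huwe1, Ltn1, Pias2, Uba3 and Zranb1. Anapc4, Birc6, Herc4, Huwe1, Ltn1 and Zranb1 were taken by gene symbol from the study's annotation of circRNAs whose mean was higher in the surgery group, and Pias2 and Uba3 by probe name from its short list of the most changed circRNAs. The members were thus selected on the surgery against control contrast of these same arrays, so the calls, standard errors and intervals given for them describe the size and spread of each difference and are no independent test of it. Hippocampal tissue came from male C57BL/6J mice aged 12 months, 72 h after the intervention. In the surgery group (3 mice), the tibia of the left hind leg was fractured and fixed with an intramedullary nail under isoflurane anesthesia with butorphenol given subcutaneously. The study's methods spell the analgesic butylphenol. The control group (3 mice) received the same anesthetic and the same analgesic and no fracture, and by the study's methods all animals also went through behavioral testing with foot shocks. Each mouse had its own one-color array, and fracture, nail and the time after them cannot be told apart in this design.

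A circRNA is a closed loop made when a downstream splice donor is joined to an upstream splice acceptor of the same transcript. Such loops resist exonucleases, and many are abundant in neurons. Ubiquitin is activated by an E1 enzyme, carried by an E2 and placed on a substrate by an E3 ligase, most often of the RING or HECT family, while deubiquitinating enzymes remove it again. NEDD8 and SUMO are small relatives of ubiquitin with their own E1, E2 and ligases, and in neurons this chemistry trims synaptic proteins and clears misfolded ones. The arrays measured the loops after RNase R had digested linear RNA. The linear mRNAs and the proteins of the 8 genes were not analysed here, so a level below is that of the circRNA alone. Hippocampus was measured as bulk tissue, in which fewer cells of a type and less RNA per cell cannot be told apart.

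The probes are what defines each measurement, so the 60-base sequences of the 6 members for which the study's annotation gives one are shown 5′ to 3′. Their back-splice position is not marked in that annotation, so no base is in capitals.
Anapc4 mmu_circRNA_38606: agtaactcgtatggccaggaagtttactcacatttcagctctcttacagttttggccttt
Birc6 mmu_circRNA_30911: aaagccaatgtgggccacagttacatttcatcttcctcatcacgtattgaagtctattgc
Herc4 mmu_circRNA_22135: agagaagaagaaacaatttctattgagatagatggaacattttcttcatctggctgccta
Huwe1 mmu_circRNA_45832: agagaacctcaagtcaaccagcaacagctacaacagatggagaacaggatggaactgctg
Ltn1 mmu_circRNA_29986: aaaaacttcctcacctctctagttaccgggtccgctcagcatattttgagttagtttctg
Zranb1 mmu_circRNA_004212: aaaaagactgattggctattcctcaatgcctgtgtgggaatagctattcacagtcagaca
GC content was 41.7% for the Anapc4, Birc6 and Zranb1 probes, 35.0% for Herc4, 48.3% for Huwe1 and 43.3% for Ltn1. The median of the 1257 annotated circRNAs read here was 43.3%, with a range of 30.0% to 63.3%. The longest stretch that any of the 6 shared with another of those probes was 11 or 12 bases, so no near-identical probe of another host was found among them.

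The 6 loops with positions in the annotation read here came from different parts of their genes and from 6 chromosomes. Coordinates are read as mouse GRCm38, because 1127 of the 1138 annotated circRNAs whose host symbol is in RefSeq lie inside that gene in GRCm38.p6. Annotated as exonic, the Anapc4 circRNA runs from chr5:52839622-52845407 on the plus strand and covers 5.79 kb, or 17.7%, of its gene. Exonic too, the Birc6 circRNA at chr17:74557901-74593249 (plus strand) spans 35.3 kb, or 20.2% of the gene. The Herc4 circRNA at chr10:63287519-63316802 (plus strand, exonic) spans 29.3 kb and takes in 39.5% of its gene, the largest share among the 6. By contrast, the Huwe1 circRNA at chrX:151878718-151883309 (plus strand, exonic) covers 4.59 kb, which is 3.41% of a long gene. The shortest span is that of the Ltn1 circRNA, exonic at chr16:87420173-87420982 on the minus strand, with 0.81 kb or 1.45% of the gene. The Zranb1 circRNA at chr7:132948044-132950435 (plus strand) is annotated as sense overlapping rather than exonic, and covers 2.39 kb or 4.33% of the gene. The Uba3 and Pias2 circRNAs are exonic as well by the study's short list, which gives no start and end. The Uba3 gene lies at chr6:97183632-97205647. The median span of the 1029 annotated exonic circRNAs was 13.7 kb, so the Birc6 and Herc4 spans lie above the median and the Ltn1 span below it. A span is the interval on the genome between the listed start and end. The length of the loop itself was not analysed here.

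**Figure D1:**
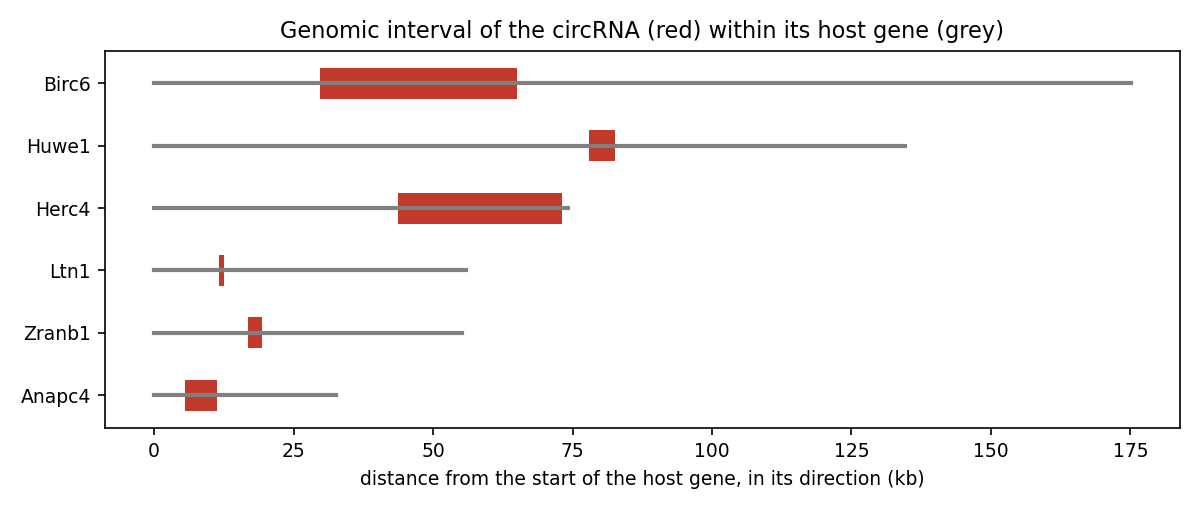
Share of each host gene that the circRNA spans, drawn to scale in kb from the gene's start in its direction of transcription (x axis) for the 6 genes with annotated positions; the grey line is the gene and the red bar the span of the circRNA. The Herc4 loop takes in 39.5% of its gene and the Ltn1 loop 1.45%.

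Of the 8 circRNAs, 6 were called higher after surgery, and 2, of Huwe1 and Zranb1, were not. Called means a fold change of at least 1.3 together with an unadjusted p no larger than 0.05, the thresholds of the study, here in limma. Over the 12499 tested circRNAs, 4.19% were called higher and 1.94% lower. The same 6 circRNAs had every surgery array above every control array, against 13.5% of all tested circRNAs. An adjusted p under 0.05 over all tested circRNAs was reached by Anapc4 and Pias2, and by 0.048% of all. None of the 8 reached it under the methods' t-test or without any one of surgery arrays 2 and 3 and control arrays 2 and 3. A fit with the slide row as a block rests on surgery array 1 alone against the 3 control arrays, so no calls are given for it. With normexp background correction and an offset of 50 the calls were 3, Anapc4, Pias2 and Uba3, and with detection required on all 6 arrays only Birc6 was called of the 3 members then tested. These counts were fixed in large part by how the members were chosen, and nothing is read from them. The median difference (surgery minus control) of the 8 was 0.53 on the log2 scale, beside −0.01 over all tested circRNAs. Among the 1257 annotated circRNAs read here, which come from the list with a higher mean after surgery, the median was 0.14 with quartiles of 0.06 and 0.25.

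**Figure D2:**
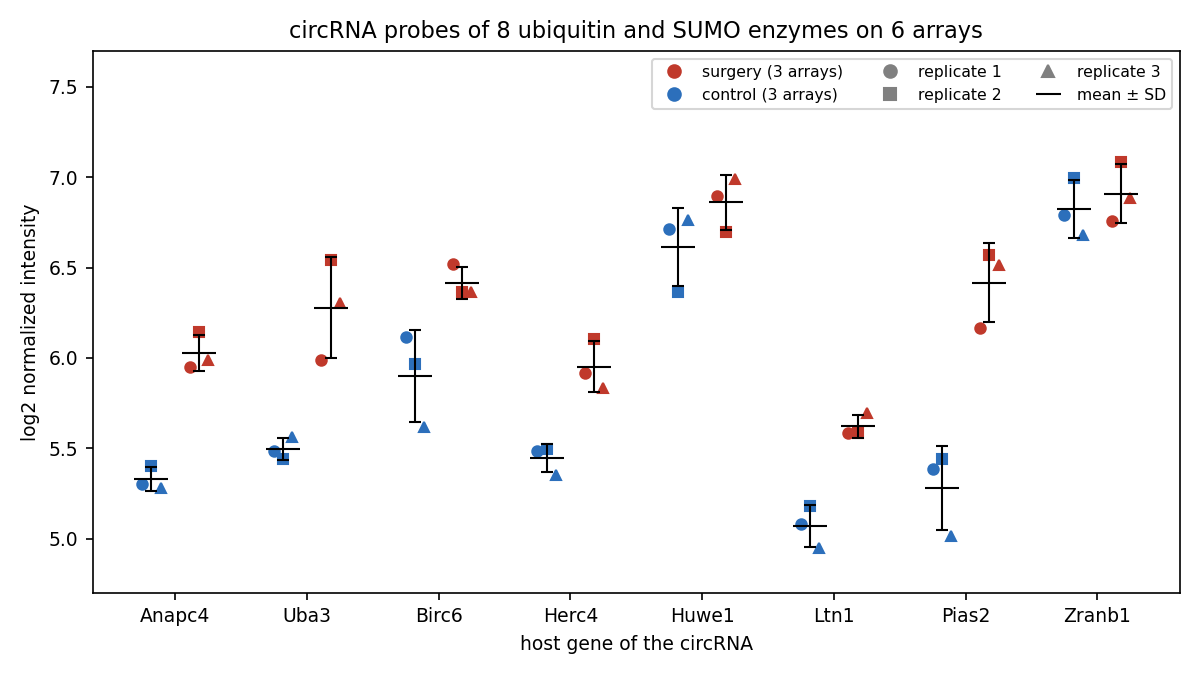
Quantile-normalized log2 signal (y axis) of each of the 8 circRNAs on the 3 surgery and the 3 control arrays; colored symbols are single arrays, with a shape per replicate number, and black bars are the group mean ± SD. In Anapc4, Birc6, Herc4, Ltn1, Pias2 and Uba3 the 3 surgery arrays lie above all 3 control arrays, and in Huwe1 and Zranb1 they overlap.

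Enzymes that start or carry the conjugation come first. Uba3 is the catalytic subunit of the E1 enzyme that activates NEDD8, whose main substrates are the cullin scaffolds of ubiquitin ligases. The normalized log2 signal of its circRNA, mmu_circRNA_40596, was 5.99, 6.54 and 6.31 in surgery mice 1 to 3 and 5.48, 5.44 and 5.56 in control mice 1 to 3. The groups did not overlap, with 0.42 between the lowest surgery and the highest control array, and the surgery arrays were spread more widely (SD 0.28, n = 3) than the control arrays (SD 0.06, n = 3). The means were 6.28 and 5.50, a difference of 0.78 (SE 0.13) or 1.72-fold. On control array 1 the spot was not well above background, so the control level rests in part on a dim spot.

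Birc6 is a giant inhibitor of apoptosis protein that carries its own E2 domain and so acts as both conjugating enzyme and ligase. Its circRNA gave 6.52, 6.36 and 6.37 after surgery and 6.12, 5.97 and 5.62 in the controls, well above background on every array. All surgery arrays were higher, by at least 0.25, and control array 3 was the lowest of the 6. The group means of 6.42 ± 0.09 and 5.90 ± 0.25 (SD, n = 3 each) differ by 0.52 (SE 0.13), or 1.43-fold. Without control array 3 the difference was 0.39.

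Anapc4 is a scaffold subunit of the anaphase-promoting complex, the large RING-type ligase of mitotic exit that is also active in neurons. Its circRNA read 5.95, 6.14 and 5.99 after surgery against 5.30, 5.40 and 5.28 in controls. Within each group the arrays were close together (SD 0.10 and 0.07, n = 3 each), and 0.55 separated the groups. Means of 6.03 and 5.33 make the difference 0.70 (SE 0.09), or 1.62-fold. The control 1 spot was not well above background.

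Herc4 and Huwe1 are both HECT ligases, Herc4 with a regulator-of-chromosome-condensation domain and Huwe1 a very large enzyme with many substrates, Mcl1 among them. For Herc4, surgery values were 5.91, 6.11 and 5.83 and control values 5.48, 5.50 and 5.35. Those groups are 0.34 apart, with means of 5.95 ± 0.14 and 5.45 ± 0.08 (SD, n = 3 each), a difference of 0.51 (SE 0.10) or 1.42-fold. For Huwe1 the surgery arrays gave 6.90, 6.69 and 6.99 and the control arrays 6.71, 6.36 and 6.76. Here the groups overlap, since surgery array 2 lies below control arrays 1 and 3. The Huwe1 means of 6.86 ± 0.15 and 6.61 ± 0.22 (SD, n = 3 each) differ by 0.25, and the 95% interval of −0.03 to 0.53 takes in both no difference and one as large as that of Herc4. Without control array 2 the Huwe1 difference was 0.12. Its spots were well above background on all arrays, while the Herc4 spot on control array 1 was not.

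Ltn1, or listerin, is the RING ligase of ribosome-associated quality control, which marks nascent chains stuck on stalled ribosomes. The raw signal of its circRNA was 2.17 to 4.08 times the local background of the spot. After surgery it read 5.58, 5.58 and 5.70, all well above background, and in the controls 5.08, 5.18 and 4.95, none of them well above background. The control values are therefore a bound. Each control value was raised, where lower, to the lowest signal that counted as well above background on its array, 5.04 to 5.32. Against the mean of the values so raised, 5.19, the surgery mean of 5.62 was 1.34-fold higher. That lowest signal is no strict limit, since the Herc4 and Uba3 spots on control array 1 read 5.48 and were not well above background. Ltn1 passed the detection filter through the surgery arrays alone, which partly fixed its call.

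Pias2 is a SUMO ligase of the protein inhibitor of activated STAT family, best known for modifying transcription factors. Its circRNA, mmu_circRNA_32003, read 6.17, 6.57 and 6.51 after surgery and 5.39, 5.44 and 5.01 in controls. The smallest gap between the groups was 0.72, and control array 3 was again the lowest. Means of 6.42 ± 0.22 and 5.28 ± 0.23 (SD, n = 3 each) differ by 1.14 (SE 0.14), or 2.20-fold. Only 1 of the 3 control arrays, control array 2, was well above background for this probe, so the fold rests on dim control spots. The difference ran from 0.76 with normexp background correction and an offset of 50 to 2.12 with the background-subtracted signal. Between the same settings it ran from 0.44 to 1.33 for Anapc4, from 0.31 to 0.95 for Herc4 and from 0.53 to 1.23 for Uba3.

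Zranb1, also called Trabid, is a deubiquitinating enzyme of the ovarian tumor family and the only member that removes rather than places a modifier. The values of its circRNA were 6.76, 7.08 and 6.88 after surgery and 6.79, 7.0 and 6.68 in controls. The groups overlap almost fully, and surgery array 1 lies below control array 1. The means of 6.91 ± 0.16 and 6.82 ± 0.16 (SD, n = 3 each) differ by 0.09, with a 95% interval of −0.18 to 0.35. The upper end of that interval is below a 1.3-fold difference, and the interval does not show that the levels were equal. Without surgery array 2 the difference was 0.00014, and without control array 2 it was 0.17.

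The raw signal before normalization gives the brightness behind these differences. The raw median signal of Pias2 was 64, 103 and 96 after surgery against 42, 39 and 40 in the controls. For Ltn1 it was 42, 46 and 53 against 33.5, 32.5 and 38. The median raw signal of all circRNA probes was 52 to 71.5 per array, so both probes were below that range in every control array. The Huwe1 probe gave 112, 114 and 136 against 98, 73 and 119. For Zranb1 the raw signal was 101, 156 and 125 against 102.5, 111 and 114. The members well above background on all 6 arrays were Birc6, Huwe1 and Zranb1, which is 37.5% of the 8, compared with 73.7% of all tested circRNAs. The other 5 each had at least 1 control spot not well above background, and the part of dimness in their differences was not tested. Of the 3 members well above background on every array, Birc6 was called and Huwe1 and Zranb1 were not, while all 5 with a dim control spot were called. A lower control level itself makes a control spot dim, so nothing is read from this split.

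**Figure D3:**
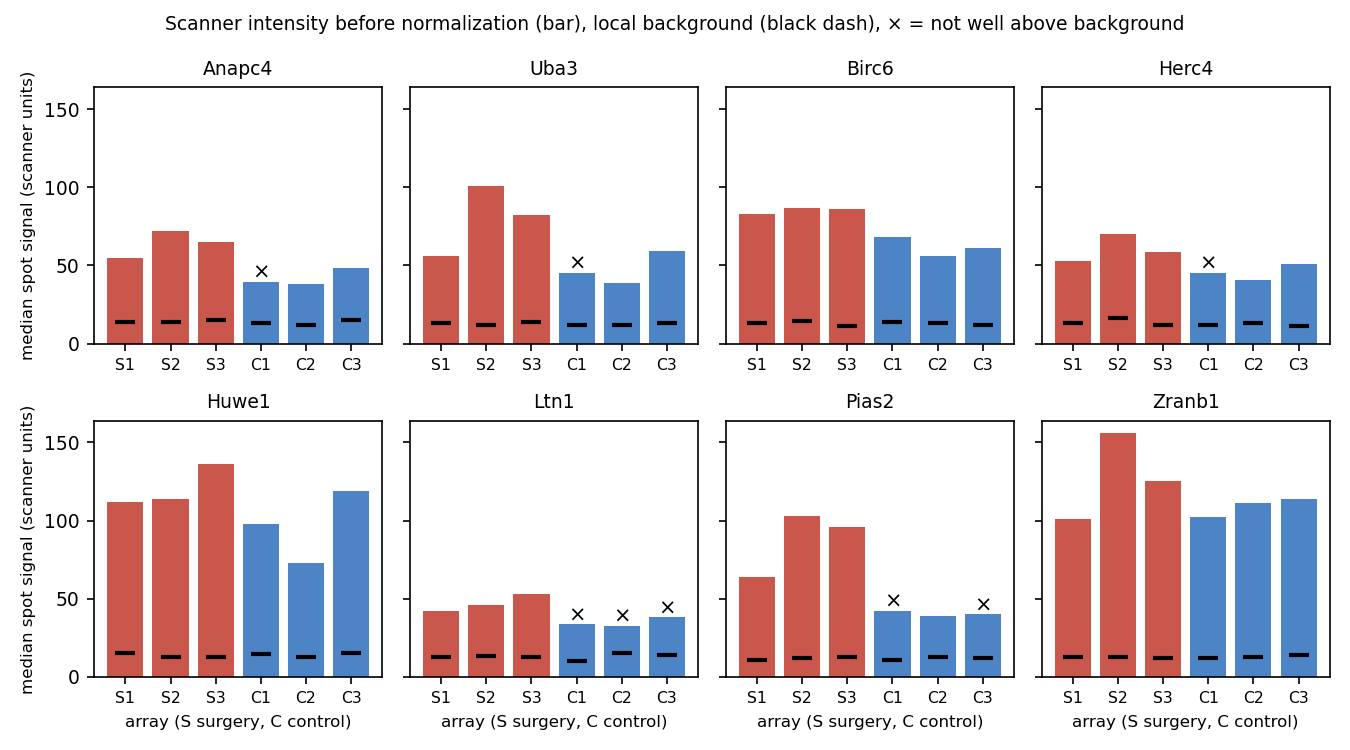
Raw median signal in scanner units (bars, y axis from 0) of the 8 circRNAs on each of the 6 arrays (x axis), with the local background of the spot as a black dash and a cross over spots not well above background. Pias2 reads 39 to 42 in the controls and 64 to 103 after surgery, and Zranb1 reads 102.5 to 114 in the controls.

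The arrays did not contribute equally. With each circRNA centred on its own mean, the 8 averaged 0.19, 0.36 and 0.30 on surgery arrays 1, 2 and 3, and −0.23, −0.24 and −0.37 on control arrays 1, 2 and 3. Surgery array 2 held the highest surgery value for 5 of the 8, and control array 3 the lowest control value for 6. The barcode deposited with each array was read here as its row and column on the slide. By that reading surgery arrays 2 and 3 lay in row 2 and the other 4 arrays in row 1, so row and group are partly mixed. Within row 1, with surgery array 1 against the 3 control arrays and hence no spread for the surgery side, the differences were 0.89 for Pias2, 0.62 for Anapc4 and Birc6, 0.49 for Uba3, 0.47 for Herc4, 0.28 for Huwe1 and −0.063 for Zranb1. For Ltn1, whose control spots are a bound, surgery array 1 also lay above the 3 control arrays. Zranb1 alone did not keep the direction of the comparison with all arrays. A fit with the slide row as a block gives these same differences, since row 2 held surgery arrays alone. Between 9257 and 13009 circRNA probes per array were well above background, with the fewest on control array 1, the array on which 5 of the 8 members were not. Before normalization, the interquartile range of the raw log2 signal was 1.19, 1.31 and 1.19 on surgery arrays 1, 2 and 3. It was 1.05, 1.11 and 1 on control arrays 1, 2 and 3, narrower than on every surgery array. The part of this spread in the differences of the 8 was not tested.

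**Figure D4:**
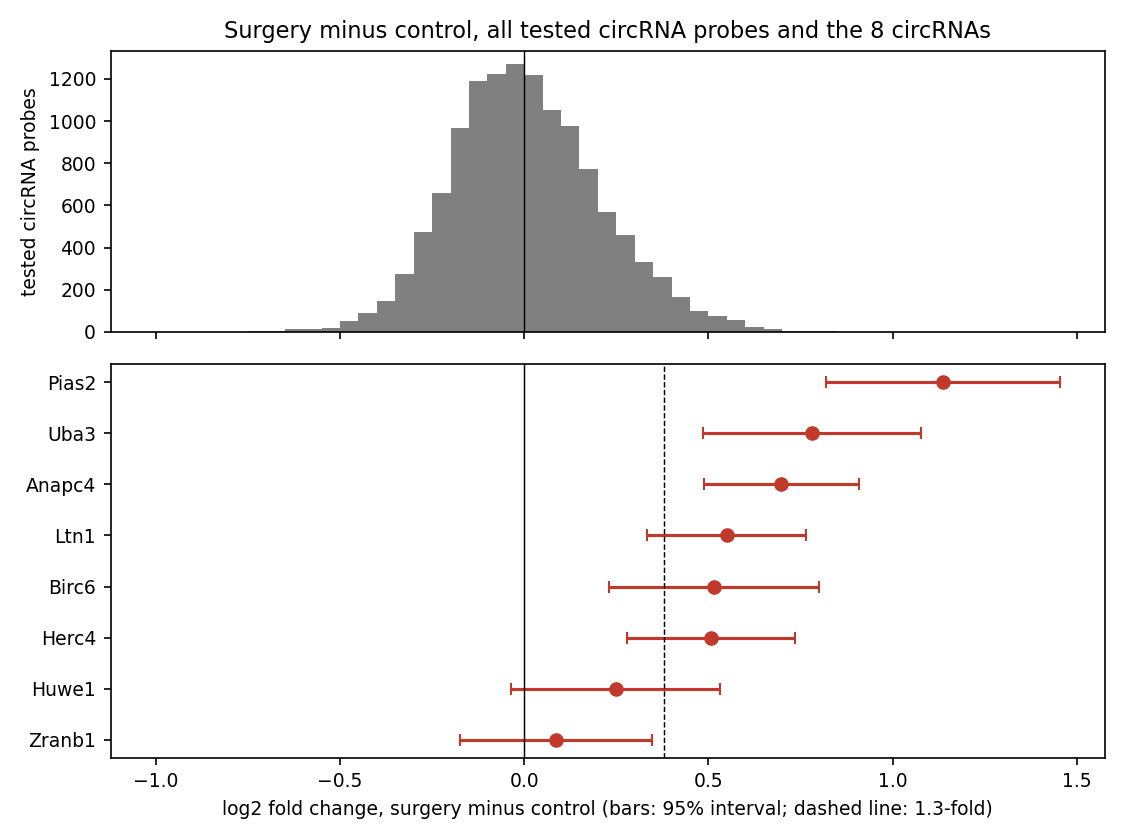
Upper panel, number (y axis) of the 12499 tested circRNAs by log2 difference (surgery minus control, x axis); lower panel, the difference of the 8 circRNAs with its 95% interval and a dashed line at 1.3-fold. The Ltn1 point uses control spots that are a bound. Zranb1 at 0.09 has the smallest difference of the 8, Huwe1 at 0.25 the next, and Pias2 at 1.14 the largest. The size of the Pias2 difference rests on dim control spots, of which only 1 was well above background.

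The other circRNAs of the pathway had a smaller median difference than the 8, which were selected on it, and single ones reached the size of Birc6 and Herc4. A list of 308 genes in 9 roles was drawn up for the ubiquitin, NEDD8 and SUMO systems, and 62 of them beyond the 8 host genes have 74 annotated circRNAs here, all tested. Of these 74, 7 were called higher and 0 lower in limma, where 4.19% of all tested circRNAs and 8.51% of the 1257 annotated ones were called higher, and none had an adjusted p under 0.05. Their median difference was 0.13, with a range of −0.02 to 0.54, close to the 0.14 of all 1257 annotated circRNAs. Because the annotation read here lists circRNAs with a higher mean after surgery, the direction of the 74 was largely set by that source. As processed here, 57 of the 1257 annotated circRNAs had a lower mean after surgery. For 22 of the 74 every surgery array was above every control array, beside 13.5% of all tested and 28.5% of the annotated circRNAs.

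Subunits and substrate adaptors of the anaphase-promoting complex and of the cullin ligases had 3 called of 15, with a median of 0.13. Klhl24, an adaptor of cullin 3, read 6.80, 6.81 and 6.65 after surgery and 6.23, 6.24 and 6.16 in controls, and rose by 0.54 (SE 0.09). Its groups stand well apart with an SD of 0.09 and 0.04 (n = 3 each). The F-box proteins recruit substrates to cullin 1. Of these, Fbxo16 rose by 0.51 (SE 0.12), from a mean of 5.95 to 6.46. Fbxl5, the iron-sensing F-box protein, rose by 0.44 (SE 0.14), and its groups nearly touch, since control array 2 at 6.28 lies just below surgery array 3 at 6.29. Cdc27, which sits in the anaphase-promoting complex beside Anapc4, has 2 annotated circRNAs. They differed by 0.37 (SE 0.15) and 0.21 (SE 0.11), and neither was called.

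RING, RBR and U-box ligases had 1 called of 27 and a median of 0.13. The call was Ubr3, a ligase of the N-end rule family, whose circRNA mmu_circRNA_33794 read 6.70, 6.65 and 6.72 after surgery and 6.31, 6.17 and 6.04 in controls. It rose by 0.51 (SE 0.10). A second Ubr3 circRNA from an overlapping stretch, mmu_circRNA_33797, gave 5.32, 5.80 and 5.72 against 5.09, 5.32 and 5.44, a difference of 0.33 (SE 0.14) that was not called, with control array 3 above surgery array 1. Whether the 2 loops differ in their response was not tested. The probes, shown because they separate 2 loops of 1 gene, share no run longer than 6 bases.
Ubr3 mmu_circRNA_33794, chr2:69965374-69993812, plus strand: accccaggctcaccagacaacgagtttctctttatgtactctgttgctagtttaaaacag
Ubr3 mmu_circRNA_33797, chr2:69973149-70003459, plus strand: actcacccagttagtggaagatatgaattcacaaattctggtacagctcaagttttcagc

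HECT ligases other than Herc4 and Huwe1 had none called of 11, with a median of 0.11. Hectd2 had the largest difference among them, at 0.27. Deubiquitinating enzymes other than Zranb1 had 2 called of 10 and a median of 0.24. Usp48 rose by 0.52 (SE 0.13), from 6.65, 6.32 and 6.14 in controls to 6.79, 6.93 and 6.95 after surgery. Usp34, which also acts on Wnt signaling, rose by 0.43 (SE 0.10), from a mean of 5.52 to 5.95. Groups did not overlap for 6 of the 10, beside 13.5% of all tested and 28.5% of the annotated circRNAs.

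SUMO ligases and proteases other than Pias2 had none called of 4, and the groups overlapped in each. Pias1, the nearest relative of Pias2 on the list, has 2 circRNAs with differences of 0.16 and 0.02. Senp1, a SUMO protease, was well above background on the surgery arrays alone, so its control level is a bound, and Ranbp2, the nucleoporin with SUMO ligase activity, differed by −0.02. The partners of Ltn1 on stalled ribosomes had none called of 3. Ankzf1, which releases the stalled chain, read 6.31, 6.17 and 6.00 against 5.94, 5.97 and 5.91, a difference of 0.22. Hbs1l, which splits stalled ribosomes, differed by 0.14, and Nemf, which recruits Ltn1, by 0.02. Of 2 E2 enzymes none was called, with Ube2w at 0.11, and none of the 1257 annotated circRNAs read here came from the 8 listed E1 genes, Uba3 being known from the short list alone.

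Proteasome subunits had 1 called of 2. That was Psmd8, a lid subunit of the regulatory particle, with 5.36, 5.63 and 5.56 after surgery and 5.25, 5.09 and 4.87 in controls. No control array was well above background for it, so its control level is a bound. It passed the detection filter through the surgery arrays alone, which partly fixed its call.

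**Figure D5:**
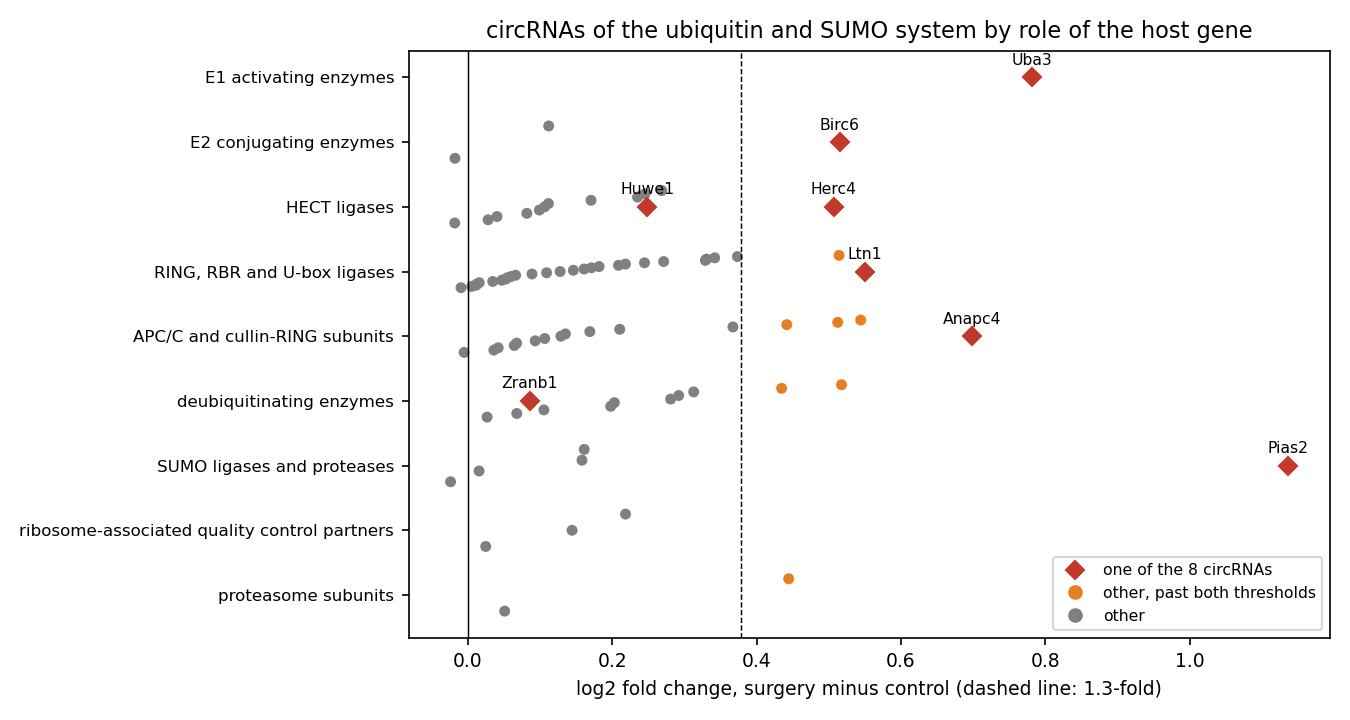
Log2 difference (surgery minus control, x axis) of each tested circRNA of the ubiquitin list by role of the host gene (y axis, points spread within a role for visibility), with the 8 members as diamonds, other called circRNAs in orange and a dashed line at 1.3-fold. In the HECT row Herc4 at 0.51 lies to the right of the other ligases, of which Hectd2 at 0.27 is the highest after it.

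The array-by-array pattern of the 8 was then compared with that of other circRNAs. Likeness was measured as the root mean square difference, over the 6 arrays, between a circRNA's centred log2 values and the mean of the centred values of the 8. Among 1221 other circRNAs with a named host, the closest were those of Zfat (0.0522), Grm5 (0.0524), Cers5 (0.0549), Zbtb44 (0.0597) and Tbc1d12 (0.0638), which placed 10, 11, 12, 16 and 18 among all 12477. Their differences between surgery and control ran from 0.55 to 0.67. The mean of the 8 carries the contrast they were selected on, so likeness to it is in large part a similar difference. Named hosts also come only from the list with a higher mean after surgery, and nothing is read from these names. Of the 8 themselves, Herc4 (0.0717) and Anapc4 (0.0815) lay close to their own mean, and Ltn1 is not placed because its control spots are a bound. Pias2 lay farthest (0.31), with a larger contrast, and Zranb1 and Huwe1 (0.254 and 0.253), with a smaller one, came next. The Pias2 distance rests on dim control spots, and the Ltn1 values still enter the mean of the 8.

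CircRNAs of cell type marker genes were also looked up. They are no check of the tissue label, since all 1257 annotated circRNAs read here had passed the detection filter and no other tissue was compared. For neurons, 13 of 14 listed genes had an annotated circRNA, and 13 of these 14 circRNAs were well above background on all 6 arrays, among them those of Slc17a7, the vesicular glutamate transporter of excitatory neurons. The summed raw signal of the neuronal circRNAs was 5079 to 5896.5 after surgery and 3509.5 to 4639.5 in the controls, before normalization. The Rims1 probe alone gave 2775 to 3217 and 1875.5 to 2483 of these sums, and its normalized difference was 0.019. Normalized differences of the 14 ran from 0.019 to 0.58, and 2, of Grm5 and Grin2a, were called. These also come from the list with a higher mean after surgery. For oligodendrocytes 2 of 7 genes had one, with sums of 107 to 115 after surgery and 95 to 112.5 in controls. For astrocytes, microglia, and endothelium or blood none of the listed genes had an annotated circRNA here, so these cell types were not checked. The part of cell makeup in the differences of the 8 was not tested.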

How the data were processed

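The deposited files hold per-spot intensity from 6 Agilent one-color arrays, 1 mouse each, which the authors extracted from the scanned images with Feature Extraction 11.0.1.1 without normalization between arrays. Spot flags (other marks of 0 or 1) were deposited beside them. Total RNA had been digested with RNase R, amplified with random primers and labelled with Cy3, so enrichment and amplification precede every value. Raw median signals of 15712 spots were quantile-normalized and log2-transformed with limma 3.58.1 in R 4.3.3. Spots flagged as not uniform were left out, which touched none of the 8 circRNAs. CircRNA probes well above background on at least 3 arrays were tested, 12499 in all, with lmFit and eBayes and Benjamini-Hochberg adjustment over all of them. Precision is limited by 3 arrays per group. Log2 differences are surgery minus control. Replicate numbers were not taken to pair animals.

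Host genes, positions and probe sequences came from the study's supplementary annotation, of which 1257 circRNAs were read, joined by probe name. Gene spans came from RefSeq on GRCm38.p6. The start was counted from 0 in the annotation and raised by 1 here, since 1005 of 1007 annotated lengths require it. No values of the annotation were used. The members and gene lists were chosen with earlier results of these data known. Named were the 8 members, every called circRNA of the ubiquitin list, otherwise the largest difference per role, the partners of Ltn1, and the 5 most similar patterns. Outside that rule, the circRNAs of Cdc27, Senp1 and Ranbp2, the further ones of Ubr3 and Pias1, and the cell type markers were also named. The fit was tested on simulated data. Alternatives covered the signal, background correction, normalization, detection filter, slide row, replicate block, the methods' t-test, and leaving out each array. The position of the back-splice junction in the probes, the Uba3 and Pias2 probe sequences and linear transcripts were not analysed here.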

Additional observations from a re-analysis of the deposited data

How the results depend on the processing

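The count of 6 called among the 8 circRNAs held in each of the 6 fits without 1 array. It also held in all other alternatives but 2, leaving aside the slide row as a block. It was 3 (Anapc4, Pias2 and Uba3) with normexp background correction and an offset of 50. It was 1 (Birc6) when detection on all 6 arrays was required, where only 3 of the 8 were tested and the groups stood apart for 1. The median difference of the 8, 0.53 with all arrays, was 1.09 and 1.01 with the background-subtracted signal scaled to the 75th percentile over all non-control spots or over probes detected on every array. It was 0.35 with the offset of 50 and 0.25 with detection on all 6 arrays. Scaling to probes detected on every array moved the median of all tested circRNAs to −0.15. Zranb1 turned to −0.063 with the slide row as a block, which compares surgery array 1 alone with the control arrays. The other 7 kept their direction in every alternative. Of the single values of the 8, 81 moved by less than the spread between arrays and 22 by more, leaving out 27 that the setting could not move.

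The 7 called circRNAs of the ubiquitin list became 11 with the background-subtracted signal scaled over non-control spots, 3 with the offset of 50, and 11 with an offset of 16. Without 1 array the count ranged from 6 to 11, with 11 reached without surgery array 1. Over all tested circRNAs 766 were called, 524 of them higher. That was 1334 with no normalization between arrays, 274 with the offset of 50, and 2857 or 3181 with the background-subtracted signal, of which 1097 and 750 were higher. Leaving out control array 1 gave 1189. The methods' t-test called the same 6 members, and none had an adjusted p under 0.05.

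An adjusted p under 0.05 was reached by 2 of the 8 with all arrays, by 3 without surgery array 1, by 2 without control array 1, and by 0 without any one of the other 4 arrays. Over all tested circRNAs that count was 6, 14, 77 and 0. With the replicate number as a block, 6 of the 8 were called, 7 of the ubiquitin list were called, and 6 of the 8 had an adjusted p under 0.05, as did 199 of all. Deviations of arrays with the same number correlated at 0.28, 0.25 and −0.02 across probes, and those with different numbers at −0.36 to 0.17. The 0.28 and 0.25 thus lie above all of the latter, and the −0.02 within their range. The study's methods mention 3 pairs of samples without saying how they were paired. These values do not settle whether the numbers pair the animals, and the differences above come from an unpaired fit. In each case the cause was not tested.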
